A study of Mus musculus with 6 samples.

Results

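The genes described here were 36 transcription factor genes that stood on the deposited lists of transcripts lower or higher in the striatum of HuD-KO mice. A row of either list was kept where its symbol began with the name of a zinc finger, homeobox, forkhead, Hox, Pax, POU, T-box, STAT, nuclear receptor, Hes, Neurod, Gli, Runx, Rhox or related family. The pattern matched 44 of the 1088 listed transcripts (1031 symbols), and 8 rows were left out because the symbol stood on 2 or more rows, was Neurod6, or started on chromosome 4 between 90 and 130 Mb. Of all listed transcripts, 790 were lower and 298 higher, and of the 36 genes kept, 22 were listed as lower and 14 as higher in HuD-KO. They were thus selected on the HuD-KO against WT contrast of these same arrays, so the values below describe them, and counts of genes past a threshold are no evidence of a difference.

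HuD, the product of Elavl4, is a neuronal RNA-binding protein that binds AU-rich and related elements of messenger RNAs and is known for stabilizing transcripts of neuronal differentiation. Transcription factors bind DNA and set which genes are transcribed. C2H2 zinc finger proteins form the largest such family in mammals and many of its KRAB-containing members silence transposable elements, while homeobox, forkhead, T-box and Runt factors are best known for patterning tissues in the embryo. Adult striatum consists mainly of GABAergic projection neurons, and several of the genes described here are best known from other organs.

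Striatal total RNA of adult HuD-KO mice (genotype written Elalvl4-/- in the labels) and of adult WT littermates had been depleted of ribosomal RNA, labeled along whole transcripts with Cy3 and hybridized to 1-color Agilent arrays of mouse messenger and long noncoding RNAs, with 3 arrays per group. The knockout line had been obtained as a gift and was labeled as homozygous, with no restriction to a tissue or age stated. Sex and exact age were not in the sources used here. The labels number the samples of each group without naming an animal, so the spread given below is that between arrays.

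Each level below is the log2 of a probe's processed signal minus the 75th percentile of that array, so that 0 is a bright spot of the array and a level has a meaning only within 1 probe. A difference is the mean of the HuD-KO arrays minus the mean of the WT arrays, with its SE from the limma fit across 47857 tested probes. "Well above background" is the scanner software's own mark for a spot. Bulk RNA cannot tell fewer cells of a type from less RNA per cell.

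Elavl4 itself checked the labels. Its level was -5.57, -6.07 and -6.13 on the HuD-KO arrays, none of them well above background, and -1.09, -1.36 and -0.70 on the WT arrays, so that the knockout arrays were lower by at least 15.5-fold. Between 77.8% and 82.0% of target spots per array were well above background, and all 6 arrays were read in 1 scan, with the 3 HuD-KO arrays and WT replicate 1 in slide row 1 and WT replicates 2 and 3 in slide row 2. Among the marker lists, 4 of 5 sex chromosome markers were listed and all 4 were Y-linked genes higher in HuD-KO, by 3.62 (Eif2s3y) to 5.59 (Kdm5d), so sex and genotype cannot be told apart in any value below. Xist, also among those 5 markers, was on neither list, and probes outside the lists carry no name. None of the 14 markers of striatal projection neurons was on either list. Absence from lists made with a fold and a p threshold does not exclude a change that missed either threshold. For Foxp1, a forkhead gene on neither list, the paper reports an increased messenger RNA level in HuD-KO striatum. Of the other tissues' markers, 4 of 10 for choroid plexus and ependyma were listed, all lower, and 5 of 14 for cortical excitatory neurons, of which 4 were higher, Neurod1 among them. Listed too were 2 of 10 markers of thalamus, septum and hypothalamus, both higher, 1 of 7 of oligodendrocytes (Mbp, lower on each of its 5 listed transcripts), 1 of 6 of astrocytes (Fgfr3, lower) and 0 of 5 of microglia. The part of all these markers in the values below was not tested.

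Each gene was read by 1 probe of 60 bases, whose sequence the deposited tables give. They are shown because the probes of the lower and the higher genes differed in composition. The stretch in capitals is the longest uninterrupted run of A or G. Positions are those of the tables, which name no build; the start of all 36 transcripts lay inside the GRCm38.p6 gene of the same symbol or within 20 kb before it. The interval given for a probe can be longer than the probe. The first 8 probes read genes listed as lower.
Stat4, chr1:52008715-52011782, plus strand: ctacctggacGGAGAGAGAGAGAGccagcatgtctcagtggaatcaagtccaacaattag
Zfp771, chr7:127244613-127244984, plus strand: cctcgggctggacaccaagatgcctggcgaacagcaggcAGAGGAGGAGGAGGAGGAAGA
Zbtb21, chr16:97956772-97956900, minus strand: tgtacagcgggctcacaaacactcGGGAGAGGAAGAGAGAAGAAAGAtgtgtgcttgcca
Zfp663, chr2:165351402-165353810, minus strand: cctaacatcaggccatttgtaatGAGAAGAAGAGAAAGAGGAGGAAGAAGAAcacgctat
Zscan5b, chr7:6239166-6239226, plus strand: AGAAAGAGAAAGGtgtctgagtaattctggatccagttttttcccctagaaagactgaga
Zfp219, chr14:52015003-52019494, minus strand: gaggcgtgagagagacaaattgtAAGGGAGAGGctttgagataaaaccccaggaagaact
Rhox3h, chrX:37657749-37657923, minus strand: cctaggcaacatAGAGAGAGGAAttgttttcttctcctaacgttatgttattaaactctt
Foxa1, chr12:57540790-57543360, minus strand: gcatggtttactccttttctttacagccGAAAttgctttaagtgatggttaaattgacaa

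The next 3 probes read genes listed as higher.
Neurod1, chr2:79452671-79455048, minus strand: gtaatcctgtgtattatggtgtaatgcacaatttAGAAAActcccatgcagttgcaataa
Rhox11, chrX:38076613-38076835, minus strand: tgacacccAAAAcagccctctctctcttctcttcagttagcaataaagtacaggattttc
Zfp697, chr3:98431889-98431949, plus strand: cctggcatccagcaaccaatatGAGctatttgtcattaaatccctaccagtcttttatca

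The longest A or G run had a median of 9.5 bases in the 22 lower genes (range 4 to 29) and of 5.5 bases in the 14 higher genes (range 3 to 9). A run of 9 bases or more was present in 15 of the 22 probes of lower genes and in 1 of the 14 of higher genes, that of Zfpm2. The median share of A and G was 60.0% and 48.3%, respectively, and the median G+C content 45.0% and 40.8%. The other listed transcripts differed in the same way: 48.5% of 752 lower and 8.78% of 262 higher probes held a run of 9 bases or more. The run and its length of 9 were chosen after the sequences had been seen, and the part of probe composition in the differences was not tested.

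All 22 genes listed as lower had every HuD-KO array under every WT array, and all 14 listed as higher had every HuD-KO array above every WT array. A list made by fold and p favors such separation, and among all tested probes 22.5% separated downward and 27.3% upward. The lists had been made with a fold and a p threshold on these arrays, so the next counts were largely fixed by the choice of genes and nothing is read from them. The 22 lower genes all passed a fold over 2 with an unadjusted limma p under 0.05, against 4.33% of all tested probes, and 12 of the 14 higher genes did, against 1.6%. At a Benjamini-Hochberg adjusted p under 0.05 the counts were 22 and 13, against 14.4% and 16% of all tested probes. With the slide row as a block both counts fell. The median difference in that fit was -1.46 over the lower and 1.101 over the higher genes. It rests on WT replicate 1 alone, the only WT array in the slide row of the HuD-KO arrays. No count is given for that fit. The median difference was -1.35 over the lower genes (from -3.04, a value at background, to -1.04) and 1.04 over the higher genes (from 0.93 to 1.40), beside a median of 0.04 over all tested probes.

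**Figure D1:**
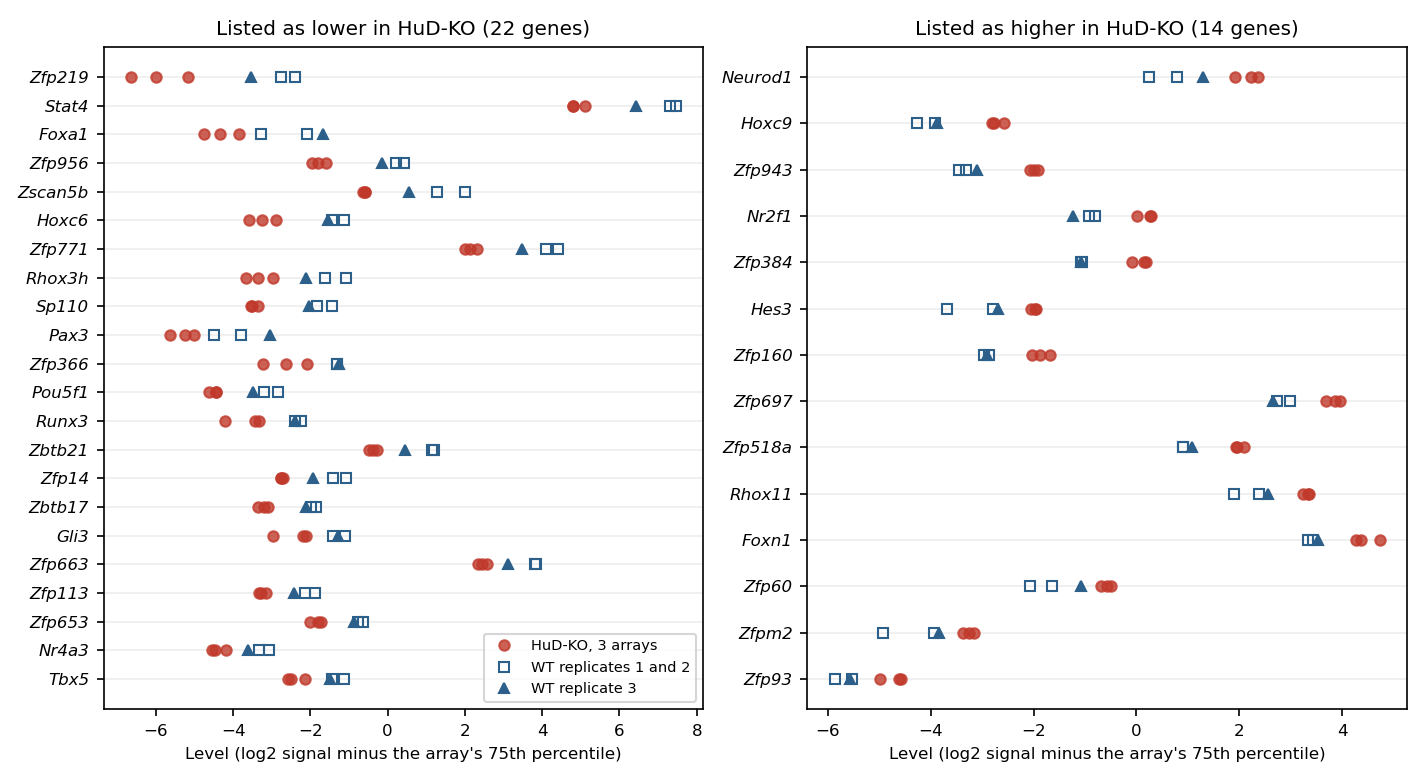
Levels of the 36 genes on each of the 6 arrays (x axis, log2 signal minus the array's 75th percentile), one row per gene, ordered by the size of the difference, with HuD-KO arrays as red circles, WT replicates 1 and 2 as open squares and WT replicate 3 as a blue triangle. The groups did not overlap for any gene, which the choice of genes favored, and the triangle was the lowest WT array in 18 of 22 lower genes.

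Among signaling-dependent and immune factors, Stat4 stood out by its difference. Stat4 (chromosome 1, 52008243 to 52107184, plus strand), which transmits interleukin-12 signals in T and natural killer cells, lay at 4.79, 5.11 and 4.80 on the HuD-KO arrays and at 7.30, 7.46 and 6.44 on the WT arrays. The difference was -2.16 ± 0.28 (SE, n = 3 arrays per group), or 4.48-fold lower, and -2.48 without WT replicate 3. The nearest arrays of both groups, HuD-KO replicate 2 and WT replicate 3, were still separated by more than the spread within HuD-KO. Its probe carried the run of 14 purines shown above.

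Runx3, a Runt factor of T cells and of proprioceptive sensory neurons, was at -4.21, -3.43 and -3.34 in HuD-KO and at -2.25, -2.39 and -2.39 in WT, a difference of -1.32 ± 0.24 (SE, n = 3). The WT arrays lay close together and HuD-KO replicate 1 was below the other two. Sp110, an interferon-inducible nuclear body protein that the pattern matched through its symbol, was at -3.36, -3.51 and -3.53 against -1.84, -1.44 and -2.05 in WT, a difference of -1.69 ± 0.17 (SE, n = 3). The table named 1 further transcript that the Sp110 probe could bind, so its value may not belong to Sp110 alone. Gli3, the main transcriptional repressor of the Hedgehog pathway, was at -2.97, -2.11 and -2.19 against -1.11, -1.40 and -1.28, a difference of -1.16 ± 0.24 (SE, n = 3). HuD-KO replicate 1 was the lowest for Gli3 too, and without it the difference was -0.88.

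Of the 6 homeobox genes, 4 were listed as lower and 2 as higher. Hoxc6 and Hoxc9, members of the Hox C cluster that assigns position along the body axis, start 32.5 kb apart on chromosome 15 and stood on opposite lists. Hoxc6 was at -3.59, -2.89 and -3.25 in HuD-KO and at -1.44, -1.14 and -1.54 in WT, a difference of -1.87 ± 0.20 (SE, n = 3), or 3.65-fold lower. Hoxc9 was at -2.57, -2.77 and -2.81 in HuD-KO and at -3.91, -4.26 and -3.87 in WT, a difference of 1.30 ± 0.14 (SE, n = 3), or 2.46-fold higher. Either probe passed the background mark on every array, and both were dim, with processed signals of 44.3 to 210 for Hoxc6 and 24.2 to 89.9 for Hoxc9.

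Rhox3h and Rhox11, X-linked homeobox genes of a cluster expressed mainly in reproductive tissues, start 418.9 kb apart and also stood on opposite lists. Rhox3h was at -3.67, -2.96 and -3.35 in HuD-KO and at -1.62, -1.08 and -2.10 in WT, a difference of -1.73 ± 0.30 (SE, n = 3). Rhox11 was at 3.34, 3.23 and 3.35 in HuD-KO and at 2.38, 1.89 and 2.56 in WT, a difference of 1.03 ± 0.18 (SE, n = 3). The HuD-KO arrays agreed closely for Rhox11, and WT replicate 2 was its lowest array. Beside these X-linked genes stand the Y-linked values given above, whose part was not tested.

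Pax3, a paired-box and homeobox factor of neural crest and muscle progenitors, was not well above background on any HuD-KO array (-5.25, -5.02 and -5.64) and was well above it on all WT arrays (-3.80, -4.50 and -3.05). On the processed signal the HuD-KO arrays were thus at least 2.32-fold lower. With another background correction (normexp, offset 50) the difference was -0.60, a smaller change than that bound. WT replicate 3 was the highest array of Pax3, unlike most lower genes. Without it the difference on the processed signal fell from -1.52 to -1.15. Pou5f1, which encodes the pluripotency factor Oct4, was at -4.44, -4.45 and -4.62 against -3.19, -2.84 and -3.48, a difference of -1.33 ± 0.17 (SE, n = 3). Its probe was also annotated as binding 1 further transcript, and its processed signal reached only 64.8.

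The forkhead genes divided likewise. Foxa1, a pioneer factor of endoderm that also acts in midbrain dopamine neurons, was at -4.76, -3.84 and -4.35 in HuD-KO and at -2.09, -3.28 and -1.66 in WT, a difference of -1.97 ± 0.45 (SE, n = 3). WT replicate 2 lay well below the other WT arrays and near the HuD-KO arrays, so the difference ran from -2.44 without it to -1.63 without WT replicate 3. Foxn1, the factor of thymic epithelium and hair follicles that is lost in nude mice, was at 4.73, 4.28 and 4.37 in HuD-KO and at 3.43, 3.34 and 3.52 in WT, a difference of 1.03 ± 0.14 (SE, n = 3). The WT arrays of Foxn1 were more tightly grouped than its HuD-KO arrays, of which replicate 1 was highest.

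Nuclear receptors were on both lists as well. Nr4a3, an orphan receptor induced as an immediate early gene, was at -4.54, -4.47 and -4.18 against -3.34, -3.07 and -3.61 in WT, a difference of -1.06 ± 0.17 (SE, n = 3). Its spot lay in a corner of the array that was dim on HuD-KO replicate 2, which was not its lowest array. Nr2f1, a COUP factor that patterns the cortex, was at 0.29, 0.01 and 0.26 in HuD-KO and at -0.92, -0.80 and -1.24 in WT, a difference of 1.17 ± 0.15 (SE, n = 3). Tbx5, a T-box factor of heart and forelimb, was at -2.49, -2.57 and -2.14 against -1.45, -1.12 and -1.51, a difference of -1.04 ± 0.16 (SE, n = 3), the nearest to 0 of the lower genes.

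**Figure D2:**
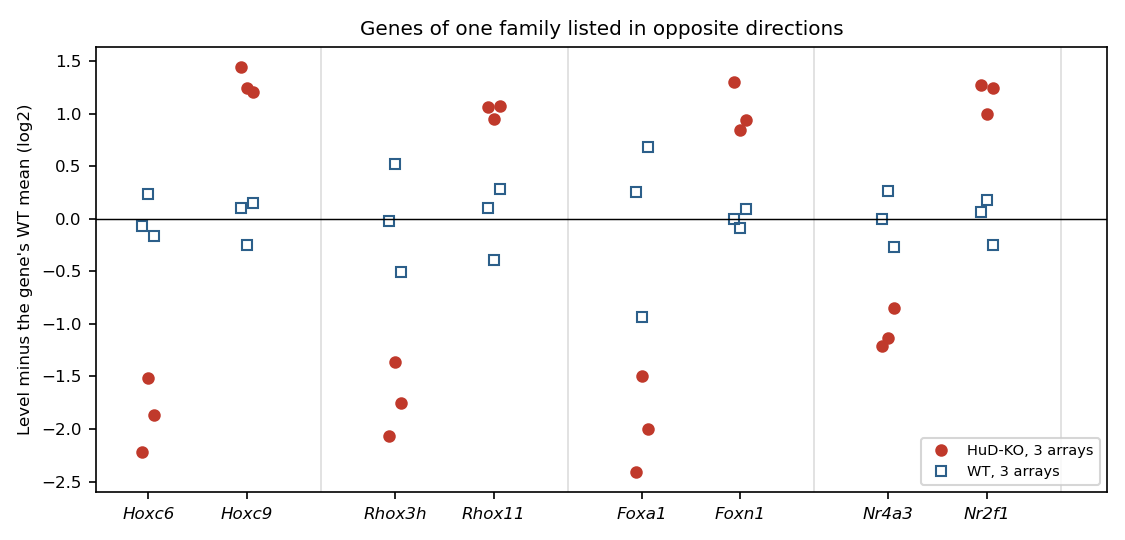
Level of 8 genes on each array minus the mean of that gene's WT arrays (y axis, log2), in pairs from one family, with HuD-KO arrays as red circles and WT arrays as open blue squares. In each pair the first gene (Hoxc6, Rhox3h, Foxa1, Nr4a3) was listed as lower and the second (Hoxc9, Rhox11, Foxn1, Nr2f1) as higher, and Foxa1 had the widest WT spread.

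Both basic helix-loop-helix genes were listed as higher. Neurod1, which drives neuronal differentiation and persists in granule cells of hippocampus and cerebellum, was at 2.23, 1.92 and 2.37 in HuD-KO and at 0.79, 0.24 and 1.30 in WT. The difference of 1.40 ± 0.28 (SE, n = 3), or 2.63-fold, was the largest of the 14 higher genes, and it ran from 1.13 to 1.66 when 1 array was left out. The related cortical marker Neurod6, left out by the rule, was at 6.03, 5.65 and 6.08 in HuD-KO and at 4.28, 3.67 and 4.72 in WT. In both genes WT replicate 3 was the highest and WT replicate 2 the lowest WT array. Among the listed cortical markers, Nrgn differed by 1.87 and Camk2a by -1.48, and their part in the Neurod1 value was not tested. Hes3, a repressor of neural progenitor differentiation, was at -1.96, -2.06 and -1.96 against -2.79, -3.68 and -2.70, a difference of 1.06 ± 0.26 (SE, n = 3), which was 0.75 without WT replicate 2.

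Among the lower zinc finger genes, only Zfp219 was limited to a bound. Zfp219 (chromosome 14, 52006085 to 52019713, minus strand) was not well above background on any HuD-KO array, at -6.65, -5.16 and -6.01, and was at -2.77, -2.39 and -3.55 on the WT arrays. On the processed signal the bound was a value at least 4.28-fold lower in HuD-KO. The fitted difference of -3.04 ± 0.45 (SE, n = 3) rests on values at background. With another background correction (normexp, offset 50) the difference was -1.04, a smaller change, so the bound holds for the processed signal only. That bound is below the 4.48-fold measured for Stat4, so the genes cannot be ranked by it. Processed signals were 5.34 to 15.3 in HuD-KO and 38.1 to 88.7 in WT, so the gene was dim in both groups.

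Among zinc finger genes measured above background throughout, 5 stood out on the lower list. Zfp956 was at -1.82, -1.61 and -1.95 in HuD-KO and at 0.20, 0.41 and -0.14 in WT, a difference of -1.95 ± 0.17 (SE, n = 3). Zscan5b was at -0.59, -0.59 and -0.65 against 1.27, 2.01 and 0.56, a difference of -1.89 ± 0.35 (SE, n = 3). Zfp771 was at 1.99, 2.31 and 2.13 against 4.09, 4.42 and 3.47, a difference of -1.85 ± 0.25 (SE, n = 3). In each of these genes WT replicate 2 was the highest WT array and WT replicate 3 the lowest, and for Zscan5b the WT arrays spanned more than the HuD-KO arrays by far. The Zscan5b spot lay in the corner of the array that was dim on HuD-KO replicate 2, which was not its lowest array. Zfp366, known from dendritic cells, was at -2.63, -3.24 and -2.09 against -1.30, -1.31 and -1.25, a difference of -1.36 ± 0.28 (SE, n = 3). Here the spread was in HuD-KO, with replicate 2 lowest, and the spot lay in the corner of the array that was dim on that replicate; without that replicate the difference was -1.07. Zbtb21 was at -0.48, -0.26 and -0.39 against 1.14, 1.21 and 0.44, a difference of -1.31 ± 0.22 (SE, n = 3), and its probe was annotated as binding 1 further transcript.

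The remaining lower zinc finger genes lay between -1.26 (Zfp14) and -1.07 (Zfp653). Zfp663 was at 2.35, 2.57 and 2.43 in HuD-KO and at 3.85, 3.82 and 3.11 in WT, a difference of -1.14 ± 0.21 (SE, n = 3). Zbtb17, which encodes the Myc partner Miz-1, differed by -1.23 ± 0.11 (SE, n = 3), and Zfp113 by -1.10 ± 0.15 (SE, n = 3). For Zfp14 and Zfp113, as for Zfp663, WT replicate 3 was the WT array nearest to HuD-KO. The Zfp14 probe was annotated as binding 1 further transcript.

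Zinc finger genes listed as higher differed less among themselves. Zfp943 was at -1.99, -2.08 and -1.91 in HuD-KO and at -3.31, -3.44 and -3.11 in WT, a difference of 1.29 ± 0.11 (SE, n = 3). Zfp384, a nuclear matrix-associated factor, was at 0.20, -0.09 and 0.15 against -1.05, -1.07 and -1.07, a difference of 1.15 ± 0.10 (SE, n = 3). Zfp160 was at -1.88, -2.03 and -1.68 against -2.96, -2.86 and -2.90, a difference of 1.04 ± 0.11 (SE, n = 3). For Zfp384 and Zfp160 the WT arrays were nearly level with each other. Zfp160 and Zfp943 start 953.6 kb apart on chromosome 17 and were both listed as higher. Zfp697 was at 3.87, 3.68 and 3.95 against 2.73, 2.99 and 2.66, a difference of 1.04 ± 0.12 (SE, n = 3). Zfp518a was at 1.95, 1.94 and 2.09 against 0.90, 0.91 and 1.09, a difference of 1.03 ± 0.09 (SE, n = 3). Both were bright on all arrays, with processed signals of 2817 to 9508 for Zfp697 and 870 to 2629 for Zfp518a. Zfp60 differed by 1.02 ± 0.25 (SE, n = 3), and its probe was annotated as binding 1 further transcript.

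Zfpm2 and Zfp93 were the higher genes nearest to 0. Zfpm2, a cofactor of GATA factors in the heart, was at -3.15, -3.37 and -3.25 in HuD-KO and at -3.93, -4.93 and -3.84 in WT, where replicate 2 was not well above background. The fitted difference was 0.98 ± 0.29 (SE, n = 3) and fell to 0.63 without WT replicate 2. As a bound, Zfpm2 was at least 1.88-fold higher in HuD-KO. Zfp93 was at -4.98, -4.57 and -4.62 against -5.86, -5.52 and -5.57, and no WT array was well above background. On the processed signal Zfp93 was thus at least 1.11-fold higher in HuD-KO. With normexp (offset 50) its difference was -0.0094, so the bound did not hold under that correction. Tbx5 and Nr4a3, given above, were the lower genes nearest to the 2-fold limit of the lists; genes just outside it carry no name in the tables and were not analysed here.

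The spread within WT differed with the probes. WT replicate 3 was the lowest WT array in 18 of the 22 lower genes, against 54.3% of the other listed lower probes and 35.7% of all tested probes, and in 2 of the 14 higher genes, against 47.7% of the other listed higher probes. In the 15 lower genes whose probe held a run of 9 purines or more, WT replicate 3 was lowest in 14 and deviated from the mean of the other WT arrays by a median of -0.69 (from -1.08 to 0.06). In the 7 lower genes with a shorter run it was lowest in 4, with a median deviation of -0.07 (from -0.40 to 1.102). The other listed lower probes ran likewise, with a median deviation of -0.48 in 365 with a run of 9 or more and of 0.11 in 387 with a shorter run. These are counts over probes that share the same arrays, and why that array deviated was not tested.

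**Figure D3:**
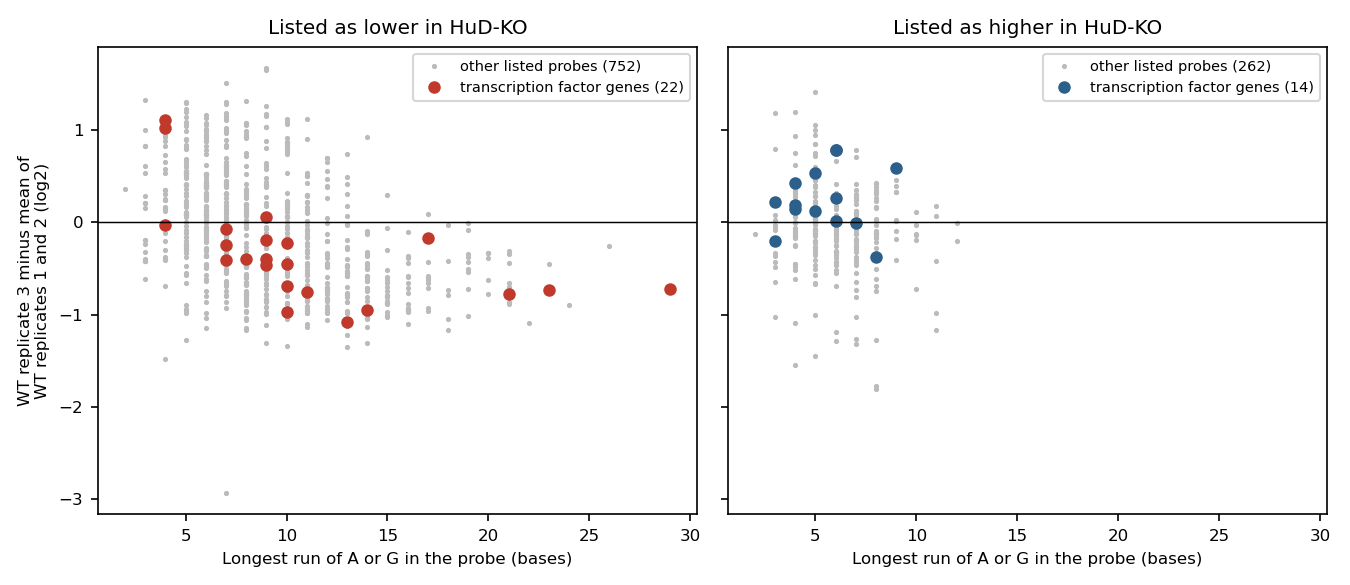
Deviation of WT replicate 3 from the mean of WT replicates 1 and 2 (y axis, log2) against the longest run of A or G in the probe (x axis, bases), for transcripts listed as lower (left) and higher (right), with the described genes as large points and the other listed probes in grey. Lower genes with runs above 10 bases all lay below 0, and no probe of the 14 higher genes had a run over 9 bases.

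Against WT replicate 3 alone, the HuD-KO mean was lower in all 22 lower genes, by over 1 log2 unit in 15 of them, with a median of -1.20. It was higher in all 14 higher genes, by over 1 log2 unit in 6, with a median of 0.92. Within the first slide row, where WT replicate 1 stood beside the HuD-KO arrays, the medians were -1.46 and 1.101, and 21 of 22 and 11 of 14 genes differed by over 1 log2 unit. Without WT replicate 3 the medians were -1.49 and 1.16. The direction of each gene was fixed by the choice of genes, so its recurrence is no sign of stability.

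**Figure D4:**
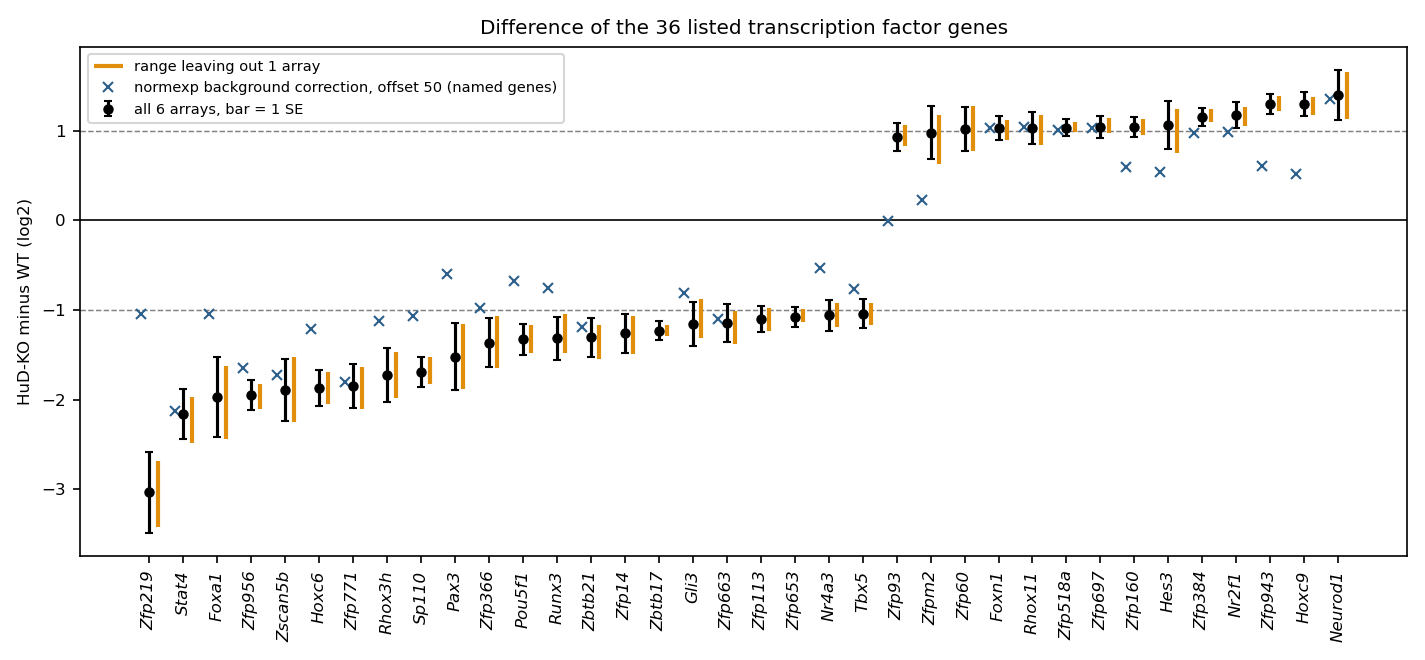
Difference HuD-KO minus WT (y axis, log2) of the 36 genes in order of size, with black points and bars for the value and its SE over all 6 arrays, orange bars for the range when 1 array was left out, and blue crosses for the named genes after normexp background correction. Dashed lines mark 2-fold. The value of Zfp219, -3.04, rests on HuD-KO signals at background, Stat4 had a difference of -2.16 and Neurod1 of 1.40, and the crosses of dim genes such as Zfp219, Pax3 and Zfp93 lay nearer to 0.

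None of the 36 symbols stood on the study's lists of circular RNA host genes bound or regulated by HuD, or of genes with HuD-bound messenger and circular RNAs alike. Of all 1031 listed symbols, only 23, 5 and 7 did, so the absence of the 36 says little about them. The last list holds only genes whose circular RNA was bound as well, so binding of the messenger RNA alone was not looked up. The promoters of the genes, 250 bases before to 50 after the start in the RefSeq table for GRCm38.p6, were found for 17 of 22 lower and 11 of 14 higher genes. Their median G+C content was 58.3% in lower and 59.7% in higher genes, beside 55.3% over 713 other listed symbols and 52.8% over 27025 symbols of the table. The median number of CpG dinucleotides per promoter was 20 and 17, beside 11 and 7. No promoter is printed, since the arrays did not read promoters.

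Of a further set of transcription factor families, 12 listed transcripts were lower and 7 higher. The pattern for that set also took Spink8 and Spink12, which encode protease inhibitors, and without them the counts were 11 and 6. The median difference was -1.41 over the 12 and 1.17 over the 7.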

How the data were processed

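The authors had scanned 1-color Agilent arrays, and the deposited scanner files (Agilent Feature Extraction 11.0.1.1) give the processed intensity, the median and background intensity and a background mark per spot. The deposited tables of transcripts lower and higher in HuD-KO hold floored raw intensity and log2 normalized values beside the authors' own fold changes and p-values, which were not used; the submitters' processing notes name limma. The processed intensity was scaled to the 75th percentile of each array, taken to log2 and averaged per probe. Probes well above background on all arrays of at least 1 group (47857) were fitted with limma 3.58.1 in R 4.3.3 (lmFit, eBayes, two-sided, 3 HuD-KO against 3 WT arrays) and adjusted by Benjamini-Hochberg over all of them; the procedure was tested on simulated data. An exact permutation test of 3 against 3 arrays cannot go below p = 0.1. Depth has no counterpart here: the number of arrays limits the precision.

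The genes and lists were chosen with earlier results of these data known. Named genes were all members outside the zinc finger symbols (Zfp, Zbtb, Zscan), the 5 largest differences per direction among zinc finger genes on all 6 arrays without overlap, up to 3 bounds per direction, the 3 brightest, and the 2 per list nearest to 0; other members are named as a summary. For a bound, the dim group entered with its own signal on each array or with the array's dimmest spot that passed the background mark, whichever was greater. Such bounds apply to the processed signal and are no limits under another background correction. Other scalings, normexp on the median spot signal (offset 50), filters, blocks, a t-test as in the methods and leaving out arrays were tried. Protein sequences were not analysed here, and some items are not reported here.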

Additional observations from a re-analysis of the deposited data

How the results depend on the processing

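Counts of genes past a threshold stand in this section without the share of all tested probes, so nothing is read from them. Normexp background correction with an offset of 50 was the alternative that moved most values. Under it 11 of the lower and 5 of the higher genes passed 2-fold in place of 22 and 12, the lower median moved from -1.35 to -1.01, 17 of 31 named genes moved toward 0 by more than the spread between arrays, and Zfp93 reversed to -0.0094. With the slide row as a block, 0 lower and 0 higher genes passed an adjusted p under 0.05 (limma), against 21 and 11 past 2-fold at an unadjusted p under 0.05, and the medians were -1.46 and 1.101. The difference in that fit rests on WT replicate 1 alone. Of the 98 comparisons of counts and medians, 93 stayed within 1.5 times or the spread between arrays. That limit is wide: it took in a fall from 12 to 8 higher genes past 2-fold without WT replicate 2. The choice of genes favored such agreement, so it is no sign of stability.

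Leaving out 1 array gave 19 to 22 lower and 8 to 13 higher genes past 2-fold, 18 to 22 and 10 to 14 at an adjusted p under 0.05, and medians from -1.49 to -1.35 and from 1.03 to 1.16. Deviations of same-numbered arrays correlated at -0.03, -0.06 and -0.13, which showed no strong pairing by replicate number but cannot exclude one. With the replicate block the counts past 2-fold were 22 and 12 and those at an adjusted p under 0.05 were 19 and 13. The t-test as in the methods gave 22 and 12 past 2-fold and 18 and 10 after Benjamini-Hochberg adjustment. The deposited log2 normalized values, added after seeing the data, gave medians of -1.33 and 1.07. Signal near background limits Zfp219, Pax3, Zfp93 and Zfpm2, and probes shared with other transcripts limit 5 genes. Dim signal limits further genes that passed the background mark on every array. Under normexp the difference was -1.05 for Foxa1, -0.53 for Nr4a3, -0.67 for Pou5f1 and 0.51 for Hoxc9, each nearer to 0 than in the main fit.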
